A study of Mus musculus with 6 samples.

Results

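The collagen genes of the mouse were followed across 6 arrays of sorted skin cells, to ask how the family differs between Ezh1/2 double knockout (2KO) and wild-type (WT) cells and between cell populations. Members were the genes whose annotated symbol has the form of Col6a1 (Col, a number, a, a number), without Col17a1, and each gene was read through its brightest probe set, by mean log2 signal across all 6 arrays. By this rule 41 of the 18193 genes named on the array were members. RNA came from skin cells sorted by FACS from mice aged 14 days, of mixed C57B6 and CD1 background, with 1 array for each group. The groups were Ezh1/2 2KO basal epidermal cells, Ezh1/2 2KO matrix cells and Ezh1/2 2KO outer root sheath (ORS) cells, and the same 3 populations of Ezh1/2 WT mice. The 2KO basal epidermal RNA was from females, and the RNA of the other 5 groups from both sexes. The labels name no Cre or other driver and state neither the cells of the deletion nor the number of mice behind each sample.

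Collagens are secreted or membrane-bound proteins of the extracellular matrix that form triple helices from 3 chains. Fibrillar collagens are made in skin mainly by dermal fibroblasts, collagens IV, VII and XVIII lie in or just under the basement membrane of the epidermis and the hair follicle, and keratinocytes make several of these themselves. Polycomb repressive complex 2 keeps many developmental genes silent by methylating histone H3, and takes either Ezh1 or Ezh2 as its enzyme. Matrix cells are the dividing cells of the hair bulb, and the ORS is the outer layer of the follicle, continuous with the basal epidermis.

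Signals are MAS5 intensities in arbitrary units on a linear scale. A floor of 83.4, which is the median signal of the whole table, was set under every signal before ratios were taken. A gene was counted as higher or lower when its ratio reached 2-fold, and as not measured in a comparison when both signals lay below the floor. Where 1 of the 2 signals was under the floor the ratio is a lower bound and carries the words "at least". Each group is a single array, so the replicate spread is unknown and no difference here has a test, a standard deviation or a p-value. Ezh2 read 432 in 2KO and 2563 in WT basal epidermis, 1725 and 3578 in matrix, and 378 and 2151 in ORS, and so was lower on each 2KO array, least so in matrix. Ezh1 read 57.4 in 2KO and 401 in WT basal epidermis, 89.4 and 317 in matrix, and 51.6 and 380.2 in ORS. On each array 47.7% to 53.1% of the probe sets exceeded the floor.

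In matrix, collagen genes were higher in 2KO as a family. Of the 29 members measured there, 19 were at least 2-fold higher in 2KO and 0 were lower, against 9.03% and 1.62% of all genes measured in matrix that were higher and lower. In these bulk samples, more cells of a type and more RNA per cell cannot be told apart. In ORS the count was 8 members higher and 0 lower of 29, beside 8.17% and 4.75% of all genes measured there. In basal epidermis 3 of 26 members were higher and 2 lower, where the shares over all genes were 6.59% and 4.09%, so that the share of collagens called lay near that of all genes. The median log2 ratio of the measured members was 1.42 in matrix, 0.54 in ORS and 0.05 in basal epidermis, beside 0.03, 0.01 and 0.04 over all measured genes. Where the WT signal lies under the floor, a member enters the count through its 2KO signal alone, and its sign is then fixed. Among the 18 members above the floor on both matrix arrays, 15 were higher in 2KO with a median log2 ratio of 1.49, and 7.15% of all genes above the floor on both arrays were higher. In ORS this held for 5 of 24 members (median 0.50), beside 6.54% of all such genes. In basal epidermis 2 of 22 were higher and 2 lower (median -0.20), beside 5.01% and 3.96% of all such genes. Scaling the arrays to a common median gave 16 members higher in matrix, 7 higher and 1 lower in ORS, and 3 higher and 4 lower in basal epidermis. Over all genes it gave 709 higher and 574 lower of 11549 in matrix, 639 and 1002 of 11732 in ORS, and 691 and 631 of 11743 in basal epidermis. Scaling to the hybridisation controls gave 12 higher in matrix, 7 higher and 1 lower in ORS, and 2 higher and 4 lower in basal epidermis. Under it 463 of all 11757 genes measured in matrix were higher and 2130 lower, with 763 and 796 of 11957 in ORS and 642 and 585 of 11357 in basal epidermis. By class, the members higher in matrix were 7 of 9 measured fibrillar collagens, 2 of 4 collagen IV genes, 3 of 3 collagen VI genes, Col7a1, Col8a1, 4 of 5 fibril-associated collagens and 1 of 2 multiplexins, but 0 of 3 transmembrane collagens.

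**Figure D1:**
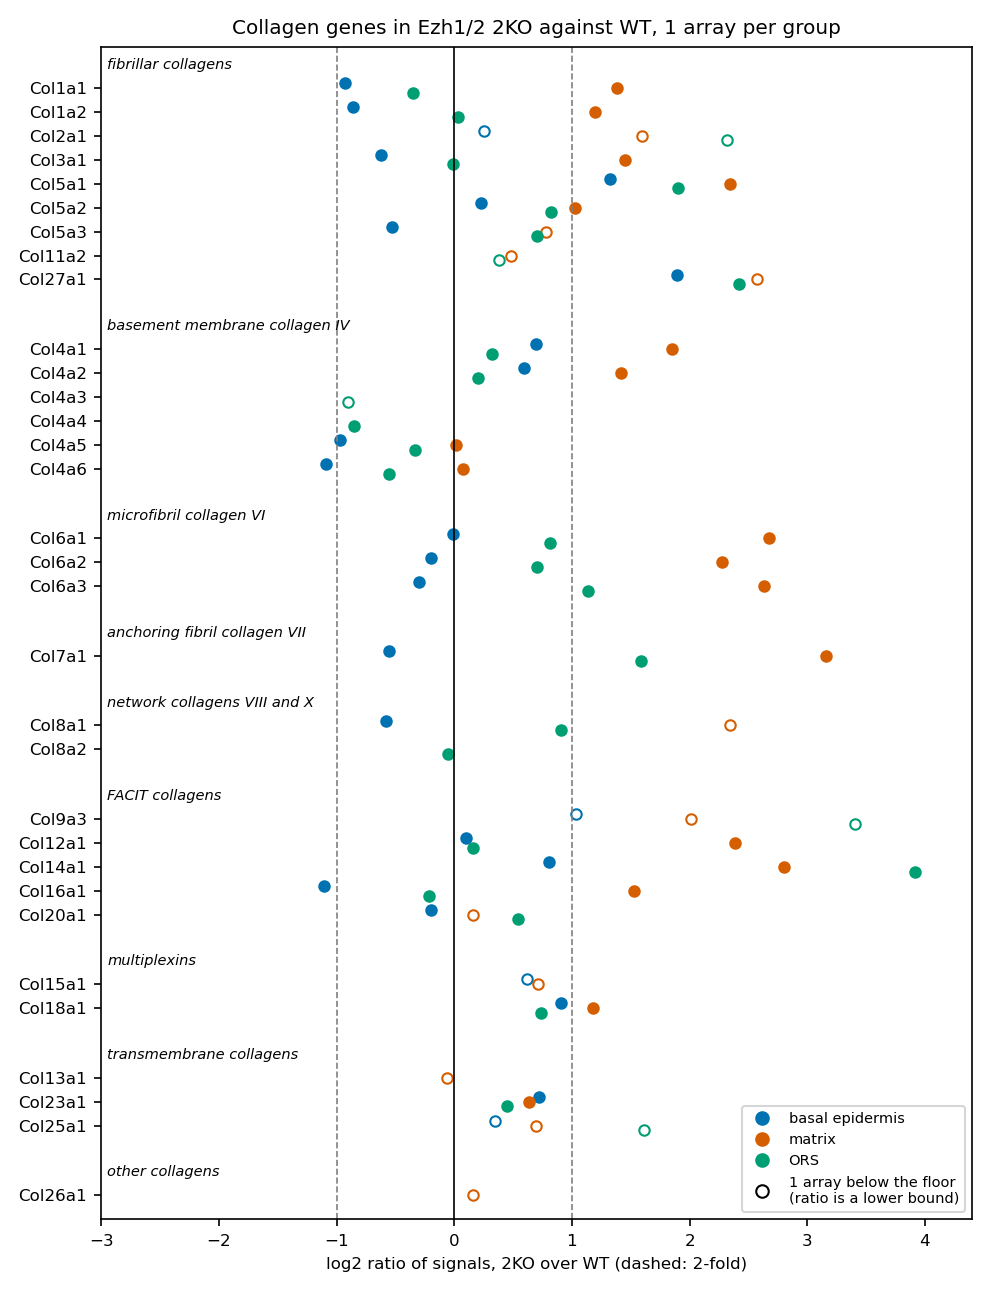
Log2 ratio of signals, 2KO over WT, for each collagen gene measured in at least 1 cell population, grouped by collagen class; each point is 1 pair of arrays. Filled points have both arrays above the floor of 83.4, and open points have 1 array below it and are lower bounds. The matrix points lie right of the dashed 2-fold line for 19 genes, the ORS points for 8 and the basal epidermis points for 3.

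Over the 3 populations, 20 members were higher in 2KO in at least 1, 4 in 2 of them and 3 in all of them. The 3 were Col5a1, Col27a1 and Col9a3, and over all 18193 genes 212 were higher in all populations. Of the 20 members, 19 were higher in matrix, where 9.03% of all measured genes were. Genes higher in at least 1 or in 2 populations were not counted over the whole array. The signals of 9 members stayed below the floor on all 6 arrays (Col6a4, Col6a5, Col9a1, Col9a2, Col10a1, Col11a1, Col19a1, Col22a1 and Col24a1), 18 lay above it on all 6 and 14 on some. The highest signal of these 9 genes on any array was 71.8, of Col22a1 in WT matrix.

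Upstream sequence was taken from a RefSeq table (GRCm38.p6), in which a match was found for 32 of the 41 members (not for Col1a1, Col2a1, Col4a3, Col5a2, Col9a3, Col12a1, Col14a1, Col22a1 and Col26a1). The 250 bases before the annotated start are shown for Col5a1 and Col27a1, which were higher in 2KO in every population, for Col7a1, which had the largest ratio in matrix among members above the floor on both arrays, and for Col3a1, which was higher in matrix only. They run 5′ to 3′ on the strand of the gene, and capitals mark CpG dinucleotides, the sites of DNA methylation in mammals. They lie at chr2:27886175-27886424, plus strand for Col5a1, at chr4:63215162-63215411, plus strand for Col27a1, at chr9:108953336-108953585, plus strand for Col7a1, and at chr1:45311288-45311537, plus strand for Col3a1.
Col5a1: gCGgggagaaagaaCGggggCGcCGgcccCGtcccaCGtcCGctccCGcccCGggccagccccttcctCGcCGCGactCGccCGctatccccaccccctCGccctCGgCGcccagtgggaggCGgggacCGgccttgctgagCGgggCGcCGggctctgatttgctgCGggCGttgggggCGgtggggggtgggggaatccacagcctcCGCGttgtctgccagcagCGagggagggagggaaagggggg
Col27a1: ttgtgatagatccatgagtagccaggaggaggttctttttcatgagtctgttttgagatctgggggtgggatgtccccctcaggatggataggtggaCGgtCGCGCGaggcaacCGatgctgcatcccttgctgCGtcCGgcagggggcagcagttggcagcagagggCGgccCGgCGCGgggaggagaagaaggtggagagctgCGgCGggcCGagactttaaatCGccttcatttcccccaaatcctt
Col7a1: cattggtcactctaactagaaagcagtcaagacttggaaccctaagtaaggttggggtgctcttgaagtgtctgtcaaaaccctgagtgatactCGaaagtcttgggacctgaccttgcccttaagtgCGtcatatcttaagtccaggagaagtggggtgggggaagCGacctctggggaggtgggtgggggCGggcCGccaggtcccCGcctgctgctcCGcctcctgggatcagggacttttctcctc
Col3a1: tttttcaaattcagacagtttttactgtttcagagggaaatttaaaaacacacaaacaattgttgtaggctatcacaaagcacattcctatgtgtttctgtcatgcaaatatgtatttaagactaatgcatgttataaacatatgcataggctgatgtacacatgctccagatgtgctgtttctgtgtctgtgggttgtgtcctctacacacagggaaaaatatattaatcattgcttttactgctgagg

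The stretch before Col5a1 held 28 CpG sites and that before Col27a1 held 15, while the Col7a1 stretch held 7 and the Col3a1 stretch 0. The 13 members with an entry that were higher in matrix had a median of 12.0 CpG sites in these 250 bases, the 9 within 2-fold a median of 14.0 and the 10 not measured 7.50, beside 14.0 over 14452 genes of the array with an entry (the window richest in CpG where a gene had several). GGGCGG, read on both strands, stood in 20 of 32 members (62.5%) and in 52.0% of the 14452 genes. TATAAA, read on both strands, stood in 4 of 32 members (12.5%), among them Col3a1, and in 8.48% of the genes. The motifs do not overlap each other in sequence, and GGGCGG contains 1 CpG. These are matches of letters and not sites of binding.

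Among fibrillar collagens, Col5a1 and Col27a1 were the members higher in all 3 populations. Col5a1, a minor fibrillar chain that controls fibril diameter, read 897 in 2KO and 359 in WT basal epidermis, 1221 in 2KO and 241 in WT matrix, and 2453 in 2KO and 657 in WT ORS. Each 2KO signal of Col5a1 lay above all 3 WT signals, and the ratios were 2.50-fold, 5.07-fold and 3.73-fold in the same order. A second bright probe set of Col5a1 gave log2 ratios of 1.17, 1.68 and 1.65, beside 1.32, 2.34 and 1.90 for the one used. The dimmest probe set of Col5a1 did not reach 2-fold in any population, with 177.9 in 2KO and 98.6 in WT ORS (log2 ratio 0.85) and bounds of 0.05 in basal epidermis and 0.24 in matrix. Col27a1, a fibrillar collagen best known from cartilage, read 403 in 2KO and 109 in WT basal epidermis, 496 in 2KO and 24.6 in WT matrix, and 1123 in 2KO and 209 in WT ORS. All 3 signals of Col27a1 in 2KO exceeded those in WT, by 3.70-fold, at least 5.94-fold and 5.37-fold.

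Col2a1, the main collagen of cartilage, lay below the floor on all WT arrays and above it on all 2KO arrays. It read 99.6 in 2KO and 2.73 in WT basal epidermis, 253 in 2KO and 32.7 in WT matrix, and 417 in 2KO and 5.54 in WT ORS. Matrix cells differed at least 3.03-fold and ORS cells at least 4.99-fold, higher in 2KO, and in basal epidermis the bound, 1.19-fold, did not reach 2-fold. Col2a1 had a single probe set on the array, so no other reading of it was available.

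The fibrillar collagens that dermal fibroblasts make in bulk behaved otherwise. Col1a1 and Col1a2, the chains of type I collagen, and Col3a1, of type III collagen, were higher in 2KO in matrix only. Col1a1 read 1649 in 2KO and 633 in WT matrix (2.61-fold higher), 479 in 2KO and 910.0 in WT basal epidermis (1.90-fold lower), and 735 in 2KO and 937 in WT ORS (1.275-fold lower). Col1a2 read 7378 in 2KO and 3221 in WT matrix (2.29-fold higher), 2736 in 2KO and 4970.4 in WT basal epidermis, and 5098 in 2KO and 4993 in WT ORS. Col3a1 read 9587 in 2KO and 3509 in WT matrix (2.73-fold higher), 3722 in 2KO and 5735 in WT basal epidermis, and 5959 in 2KO and 5993 in WT ORS. The 3 genes shared 1 pattern, with the 2KO matrix array the highest of the 6 and a 2KO basal epidermis signal below its WT counterpart by less than 2-fold. Col5a2, the second chain of type V collagen, was close to the threshold in matrix, at 1050.0 in 2KO and 516 in WT (2.04-fold higher). In basal epidermis it read 519 in 2KO and 443 in WT, and in ORS 2593 in 2KO and 1465 in WT (1.77-fold higher). Col5a3 was within 2-fold in basal epidermis and ORS, and in matrix, at 143 in 2KO and 45.3 in WT, its bound was 1.715-fold higher. Col11a2 read 117 in 2KO and 39.8 in WT matrix, a bound of 1.40-fold. Both passed 2-fold in matrix when the floor was set at the 25th percentile, and Col11a1 and Col24a1 were not measured.

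**Figure D2:**
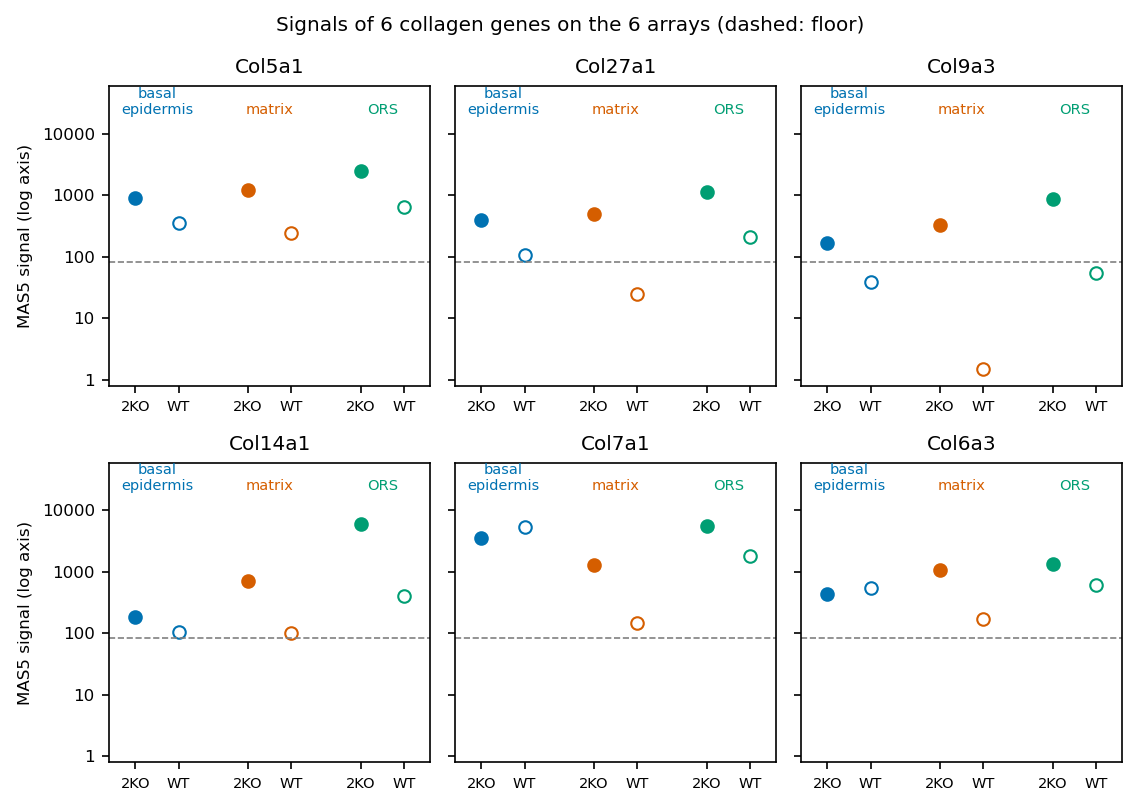
MAS5 signal on a log axis for 6 collagen genes on the 6 arrays, 1 point per array, filled for 2KO and open for WT; the dashed line is the floor of 83.4. For Col5a1, Col27a1 and Col9a3 the 2KO point stands at least 2-fold above the WT point in each population, while Col7a1 and Col6a3 are higher in 2KO in matrix and ORS only.

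Collagen IV forms the network of the basement membrane, and its genes lie in neighbouring pairs. Col4a1 read 2565 in 2KO and 1583 in WT basal epidermis, 3749 in 2KO and 1041 in WT matrix, and 8853 in 2KO and 7089.8 in WT ORS. Its neighbour Col4a2 read 1104 in 2KO and 731 in WT basal epidermis, 1322 in 2KO and 495 in WT matrix, and 4341 in 2KO and 3771 in WT ORS. Both were thus higher in 2KO matrix, 3.601-fold and 2.67-fold, and within 2-fold elsewhere.

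The pair on the X chromosome, Col4a5 and Col4a6, did not share this difference in matrix. Col4a5 read 2707 in 2KO and 5289.8 in WT basal epidermis, 886 in 2KO and 877 in WT matrix, and 3261 in 2KO and 4107 in WT ORS. Col4a6 read 337 in 2KO and 719.5 in WT basal epidermis, 101 in 2KO and 95.8 in WT matrix, and 302 in 2KO and 442 in WT ORS. In basal epidermis Col4a6 was 2.13-fold lower, and Col4a5, at 1.95-fold lower, stood just short of the threshold. In matrix both genes had the same signal in the 2 genotypes to within 1.05-fold by the probe sets used. A second probe set of Col4a5 read 484 in 2KO and 978 in WT basal epidermis, a log2 ratio of -1.02, past 2-fold. A second probe set of Col4a6 gave log2 ratios of -1.25 in basal epidermis and -0.26 in matrix. The samples of this pair differ in sex, since the 2KO basal epidermal RNA came from females and the WT RNA from both sexes; the part of sex in these ratios was not tested.

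The third pair was measured in ORS only. Col4a4 read 342 in 2KO and 619 in WT ORS (1.81-fold lower), and 39.2 in 2KO and 3.998 in WT basal epidermis, with 51.6 in 2KO and 36.1 in WT matrix. Col4a3 read 54.7 in 2KO and 156 in WT ORS (at least 1.87-fold lower), and between 8.77 and 31.3 on the other 4 arrays. A second probe set of Col4a3 read 51.8 in 2KO and 196 in WT ORS, a log2 ratio of -1.23 or lower, since the 2KO signal is below the floor. For the pair in ORS the log2 ratio was thus -0.85 for Col4a4 and at most -0.90 for Col4a3, so that both were lower in 2KO while the gap between them is not known. Other neighbouring members were the collagen VI genes Col6a1 and Col6a2, described next, and Col3a1 and Col5a2. The log2 ratios of Col3a1 and Col5a2 were -0.62 and 0.23 in basal epidermis, 1.45 and 1.02 in matrix and -0.01 and 0.82 in ORS.

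**Figure D3:**
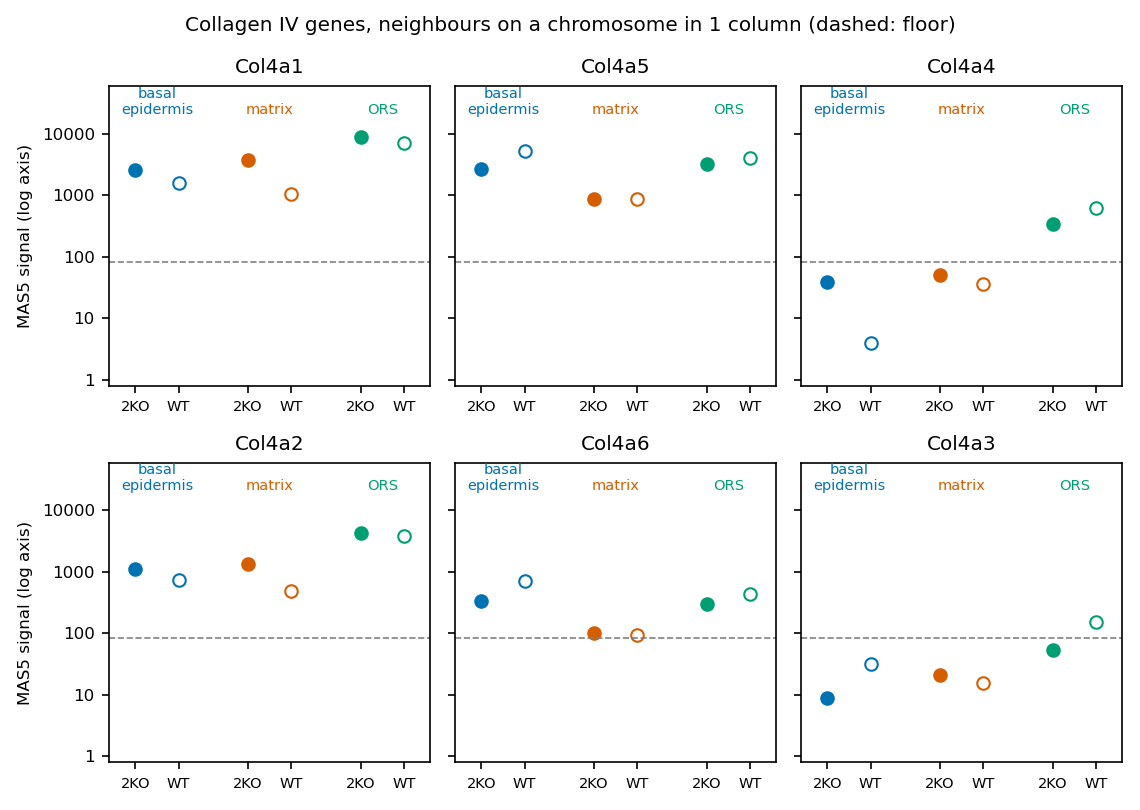
MAS5 signal on a log axis for the 6 collagen IV genes on the 6 arrays, 1 point per array, filled for 2KO and open for WT, with neighbouring genes in the same column; the dashed line is the floor of 83.4. Col4a1 and Col4a2 are higher in 2KO matrix, Col4a5 (by 1.95-fold) and Col4a6 (by 2.13-fold) are lower in 2KO basal epidermis, Col4a4 lies above the floor on both ORS arrays only, and Col4a3 on the WT ORS array only.

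Collagen VI, which forms beaded microfibrils between cells and the interstitial matrix, had 3 measured genes that were all higher in 2KO matrix. Col6a1 read 923 in 2KO and 144 in WT matrix, 357 in 2KO and 359 in WT basal epidermis, and 705 in 2KO and 401 in WT ORS. Col6a2 read 1376 in 2KO and 285 in WT matrix, 519 in 2KO and 596 in WT basal epidermis, and 1081 in 2KO and 664 in WT ORS. Col6a3 read 1076 in 2KO and 174 in WT matrix, 442 in 2KO and 544 in WT basal epidermis, and 1323 in 2KO and 603 in WT ORS. The 3 chains, which assemble into 1 molecule, differed alike: 6.39-fold, 4.83-fold and 6.19-fold higher in matrix, within 1.23-fold in basal epidermis, and 1.76-fold, 1.63-fold and 2.195-fold higher in ORS. Col6a4 and Col6a5 read at most 42.9 and 43.7.

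Col7a1, the chain of the anchoring fibrils that tie the epidermal basement membrane to the dermis, read 1315 in 2KO and 147 in WT matrix, 5515 in 2KO and 1836 in WT ORS, and 3594 in 2KO and 5271 in WT basal epidermis. The 8.94-fold ratio in matrix was the largest of the members above the floor on both matrix arrays. Col7a1 was also 3.00-fold higher in 2KO ORS, and 1.47-fold lower in 2KO basal epidermis, where WT cells had nearly the same signal as 2KO ORS cells. Col18a1, a basement membrane collagen whose end fragment is endostatin, was higher on every 2KO array, at 3963 in 2KO and 2118 in WT basal epidermis, 2255 in 2KO and 998 in WT matrix, and 6253 in 2KO and 3755 in WT ORS. Its ratios of 1.87-fold, 2.26-fold and 1.67-fold reached the threshold in matrix alone. A second probe set of Col18a1 stayed under 2-fold in every population, with 1383 in 2KO and 704.5 in WT matrix (log2 ratio 0.97). Of the other multiplexin, Col15a1, the signals were 128 in 2KO and 61.2 in WT basal epidermis, 137 in 2KO and 14.3 in WT matrix, and 30.7 in 2KO and 36.9 in WT ORS, all close to or below the floor.

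The collagens that bind to the surface of fibrils (FACIT collagens) held the largest ratios of the family. Col14a1, which associates with type I collagen fibrils, read 6059 in 2KO and 400.4 in WT ORS (15.1-fold higher), 707 in 2KO and 102 in WT matrix (6.96-fold higher), and 182 in 2KO and 104 in WT basal epidermis (1.75-fold higher). The 2KO ORS signal stood far above the other 5, and another probe set of Col14a1 read 4371 in 2KO and 237 in WT ORS. Col9a3, a chain of the collagen IX of cartilage, lay below the floor on all WT arrays. It read 171 in 2KO and 39.5 in WT basal epidermis, 336 in 2KO and 1.504 in WT matrix, and 883 in 2KO and 54.4 in WT ORS, at least 2.05-fold, 4.02-fold and 10.6-fold higher. Another probe set of Col9a3 gave 97.4 in 2KO and 13.4 in WT basal epidermis, 348 in 2KO and 4.51 in WT matrix, and 1022 in 2KO and 45.0 in WT ORS. With the floor applied it passed 2-fold in matrix and ORS but not in basal epidermis (log2 ratio of at least 0.22). The partner chains Col9a1 and Col9a2 stayed below the floor on all arrays, at 68.2 or less.

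Col12a1, a FACIT collagen of dense connective tissue, was higher in 2KO matrix alone, at 619.7 in 2KO and 119 in WT (5.22-fold). In ORS it read 3964 in 2KO and 3554 in WT, and in basal epidermis 1508 in 2KO and 1406 in WT. Another probe set of Col12a1 read 169 in 2KO and 77.0 in WT matrix, a log2 ratio of at least 1.02. With the mean of its probe sets Col12a1 was not called higher in matrix. Col16a1, a fibril-associated collagen also made by keratinocytes, was the 1 member called in opposite directions. It read 979 in 2KO and 2110.2 in WT basal epidermis (2.16-fold lower), 663 in 2KO and 229 in WT matrix (2.89-fold higher), and 2592 in 2KO and 3007 in WT ORS. Col20a1 was within 2-fold in basal epidermis and ORS, at signals of 161 or less. In matrix it read 93.0 in 2KO and 43.9 in WT, a bound of 1.11-fold that passed 2-fold with the floor at the 25th percentile.

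Of the remaining classes, Col8a1, a short-chain network collagen, read 423 in 2KO and 21.2 in WT matrix (at least 5.07-fold higher), 1019 in 2KO and 543 in WT ORS, and 423 in 2KO and 631 in WT basal epidermis. Col25a1, a transmembrane collagen known from neurons, lay below the floor on every WT array and above it on every 2KO array. It read 256 in 2KO and 21.0 in WT ORS (at least 3.06-fold higher), 135 in 2KO and 14.3 in WT matrix, and 106 in 2KO and 24.9 in WT basal epidermis. Its second probe set read 13.4 in 2KO and 19.7 in WT ORS, below the floor, and so did not show this difference. Col23a1, another transmembrane collagen, was within 2-fold between genotypes by its brightest probe set, at 853 in 2KO and 519 in WT basal epidermis. Its other probe sets were past 2-fold in that population, at 698 in 2KO and 227.5 in WT (log2 ratio 1.62) and 664 in 2KO and 292 in WT (1.19). Col8a2 was within 2-fold in ORS, at 178 in 2KO and 185 in WT, and Col13a1 and Col26a1 exceeded the floor on 1 matrix array each, at no more than 93.3. The other probe sets of the members called higher or lower were also read where they were themselves measured. Of these, 14 of 14 in matrix, 5 of 5 in ORS and 5 of 5 in basal epidermis had the same direction as the one used. Past 2-fold as well were 12, 4 and 3 of them. Probe sets with a WT signal under the floor, such as the second one of Col9a3, could only come out higher. Their direction is therefore no separate check.

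The members also differed between cell populations of 1 genotype. In WT, most measured members had their lowest signal in matrix. Of 26 members measured in WT matrix or ORS, 20 were at least 2-fold lower in matrix than in ORS and 0 were higher, against 13.9% and 8.6% of all genes that were lower and higher. In 2KO, 17 of 30 members were lower in matrix and 1, Col1a1, was higher, against 8.61% and 5.21% of all genes. Members with 1 array under the floor enter these counts with their sign fixed. Of those above the floor on both arrays, 15 of 18 were lower in WT matrix and 0 higher, beside 11.95% and 8.54% of all such genes. In 2KO 15 of 26 such members were lower and 1 higher, beside 8.32% and 4.74%. The WT matrix array was the lowest of the 6 for 15 of the 18 members above the floor everywhere. The 2KO ORS array was the highest for 16 of the 32 members above the floor anywhere, and the 2KO matrix array for 8. These counts by array were not taken over all genes. The 2KO ORS and 2KO matrix arrays also had the highest median signals of the 6, at 99.0 and 92.5. The 2 comparisons with 2KO and with WT matrix cells share no array with each other, but each shares its arrays with the comparisons of genotypes above.

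The WT difference between matrix and ORS was large for Col12a1 (119 in matrix and 3554 in ORS, 29.9-fold lower), Col16a1 (229 in matrix and 3007 in ORS, 13.1-fold lower) and Col7a1 (147 in matrix and 1836 in ORS, 12.5-fold lower). In 2KO the same genes were 6.40-fold, 3.91-fold and 4.19-fold lower in matrix than in ORS. Col6a1, Col6a2 and Col6a3 were 2.78-fold, 2.33-fold and 3.47-fold lower in WT matrix than in WT ORS, while in 2KO they lay within 1.31-fold of each other in the 2 populations. Col1a1 was 2.24-fold higher in 2KO matrix than in 2KO ORS, and 1.48-fold lower in WT matrix than in WT ORS. A second probe set of Col1a1 gave log2 ratios of 0.84 in 2KO, under 2-fold, and -1.04 in WT, past 2-fold.

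Between basal epidermis and ORS, 7 of 25 members were lower in WT basal epidermis and 2 were higher, against 5.87% and 4.15% of all genes. In 2KO, 17 of 29 were lower in basal epidermis and 1 higher, against 6.73% and 4.31%. Of members above the floor on both arrays, 5 of 22 were lower in WT basal epidermis and 2 higher, beside 5.10% and 3.87% of all such genes. In 2KO 15 of 25 such members were lower and 1 higher, beside 6.05% and 4.17%. The 2 members higher in WT basal epidermis were Col7a1 (5271 in basal epidermis and 1836 in ORS, 2.87-fold) and Col23a1 (519 in basal epidermis and 219 in ORS, 2.37-fold). Col23a1 was also the 1 member higher in 2KO basal epidermis (853 in basal epidermis and 299 in ORS, 2.85-fold). Col14a1 was 33.2-fold lower in 2KO basal epidermis than in 2KO ORS and 3.83-fold lower in WT basal epidermis than in WT ORS. Whether these differences between populations themselves differ between genotypes was not tested, as there is 1 array per group.

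**Figure D4:**
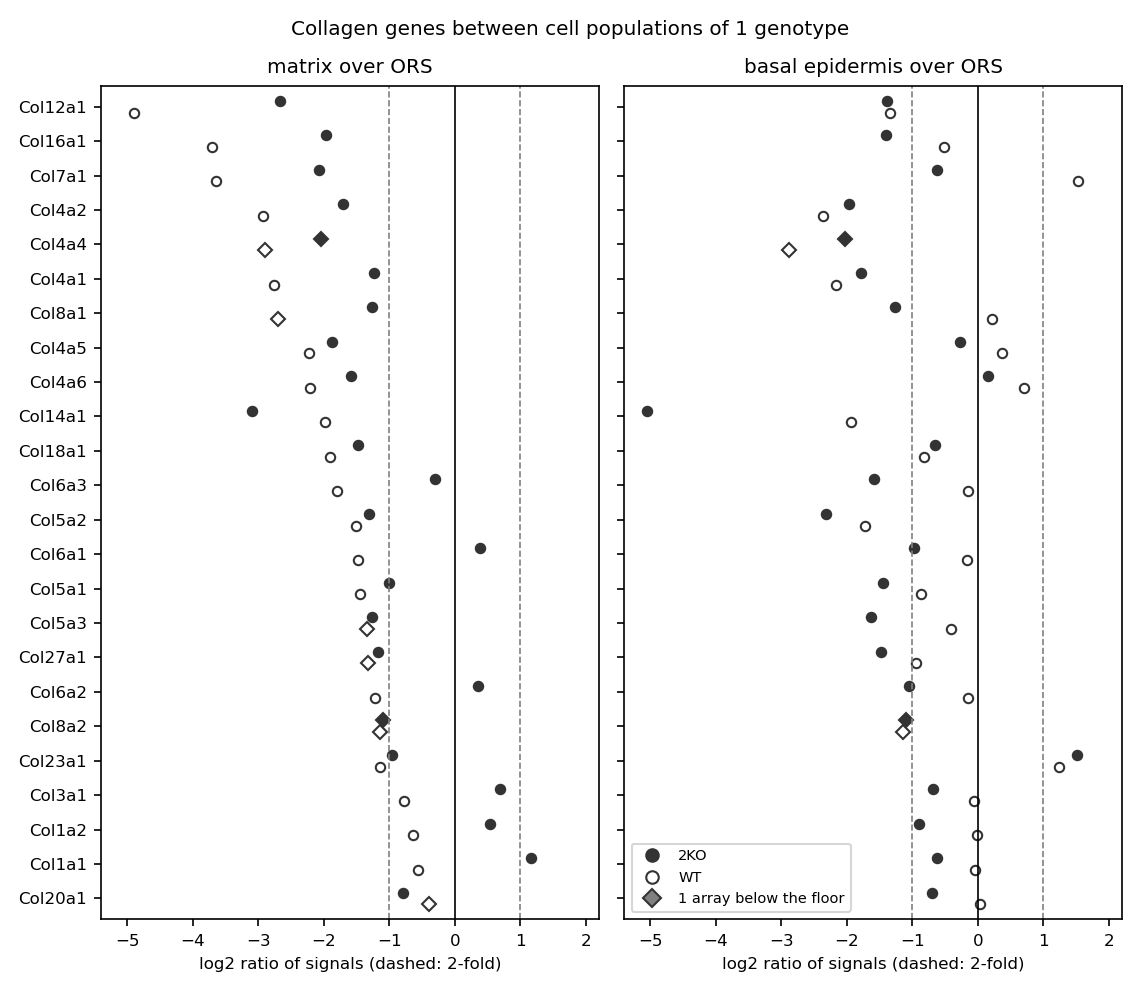
Log2 ratio of signals between cell populations, matrix over ORS on the left and basal epidermis over ORS on the right, for the collagen genes measured in both genotypes for matrix and ORS; filled points are 2KO and open points WT, and diamonds have 1 array below the floor. In WT, 20 members lie left of the dashed 2-fold line for matrix over ORS, and in 2KO the collagen VI genes and Col1a1, Col1a2 and Col3a1 lie between -0.30 and 1.17.

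The genes that process, bind and degrade collagen, and markers of cell types, were counted as lists, to be read against the shares of all genes higher and lower given above: 9.03% and 1.62% in matrix, 8.17% and 4.75% in ORS, and 6.59% and 4.09% in basal epidermis. Of 28 genes of collagen synthesis and crosslinking 24 had a probe set, and 7 of 19 measured in matrix were higher and 0 lower. The ORS count was 4 higher and 1 lower of 21, and in basal epidermis 2 of 21 were higher and 0 lower, near the share of all genes. Plod2, a lysyl hydroxylase that sets the type of collagen crosslinks, was higher in all 3 populations, at 602 in 2KO and 121 in WT basal epidermis, 910.1 in 2KO and 268 in WT matrix, and 886 in 2KO and 229 in WT ORS. In matrix the procollagen C-proteinase enhancer Pcolce was 3.51-fold, the collagen-binding protein Sparc 3.00-fold and the lysyl oxidase family gene Loxl1 at least 2.80-fold higher. Pcolce2, a relative of Pcolce, was higher in basal epidermis (at least 2.74-fold) and in ORS (at least 3.56-fold). In ORS Loxl1 was 2.34-fold higher and Adamts3, a procollagen N-proteinase, 2.24-fold lower. As medians on the log2 scale, the list stood at 0.11 for basal epidermis, 0.78 for matrix cells and 0.28 for the ORS.

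Of 9 collagen receptors with a probe set, the endocytic receptor Mrc2 was higher in all populations, with ratios of 2.09 in basal epidermis and at least 2.79 and 3.37 in matrix and ORS, and in basal epidermis the receptor tyrosine kinase Ddr2 was at least 2.71-fold lower. The medians of the list were -0.14, 0.40 and 0.08, over 5, 6 and 5 measured genes in basal epidermis, matrix and ORS. Of 10 proteases and inhibitors, 3 were higher in each population. The collagenase Mmp13 read 3972 in 2KO and 727 in WT basal epidermis, 439.8 in 2KO and 9.09 in WT matrix, and 3173 in 2KO and 230.2 in WT ORS. Timp1, an inhibitor of these proteases, was 2.96-fold, 2.76-fold and 3.95-fold higher in the same order, and Timp2 was higher by 2.22-fold in basal epidermis and by 4.26-fold in matrix. In basal epidermis the gelatinase Mmp2 was 3.25-fold and Mmp3 2.61-fold lower, and in ORS Mmp9 was at least 2.03-fold higher. The medians of this list were 0.35, 0.95 and 0.67.

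Markers of other cell types moved with the collagens on the matrix arrays. Of 15 fibroblast markers 7 of 14 measured were higher in 2KO matrix and 0 lower, with a median log2 ratio of 0.99. S100a4 was 4.06-fold, Vim 3.90-fold and Lum 3.55-fold higher. The summed signal of the list was 26507 in 2KO and 17297 in WT matrix, 10915 in 2KO and 9119 in WT basal epidermis, and 22319.6 in 2KO and 11118 in WT ORS. On the matrix arrays the proteoglycan gene Dcn made up much of that sum, at 12211 in 2KO and 11209.8 in WT, and Pdgfra lay below the floor on both. In ORS 5 of 13 were higher, with Dcn 4.58-fold, Fbln1 2.86-fold and Dlk1 at least 2.43-fold, and in basal epidermis 1 of 12, Dcn (2.09-fold).

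Pericyte and smooth muscle markers were higher in 2KO matrix in 5 of 7 cases, with Rgs5 6.97-fold, Tagln 6.15-fold and Mcam 5.91-fold, and their summed signal was 9450.2 in 2KO and 2545 in WT matrix. It was 6048 in 2KO and 3945 in WT basal epidermis, and 14989 in 2KO and 13529 in WT ORS. In basal epidermis 2 of 6 measured were higher, Mcam (10.2-fold) and Cspg4 (3.495-fold), and 0 lower. In ORS 2 of 8 were higher, again Mcam (4.16-fold) and Cspg4 (2.38-fold), and 0 lower. The other measured markers, Rgs5 and Tagln among them, were within 2-fold in these populations. Skeletal muscle markers were higher in 5 of 7 cases in 2KO matrix, with Acta1 13.0-fold, Myl1 at least 9.99-fold and Tnnc2 at least 5.23-fold, and a summed signal of 3501 in 2KO and 627 in WT matrix, and at most 760.3 on the other 4 arrays. In ORS 1 of 3, Des, was 2.81-fold higher. Immune markers were higher in 5 of 9 cases in 2KO matrix, with H2-Eb1 9.11-fold, Tyrobp at least 4.19-fold and Fcer1g at least 3.07-fold, and a summed signal of 5174 in 2KO and 1384 in WT matrix. Endothelial markers were higher in 0 of 5 cases in matrix, with summed signals of 941 in 2KO and 805 in WT, and Pecam1 and Tie1 lay below the floor on all 6 arrays. In ORS 2 of 7 were higher, Cldn5 (2.28-fold) and Egfl7 (2.03-fold), and 0 lower. In basal epidermis 1 of 7, Egfl7 (2.22-fold), was higher and 0 were lower.

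Dermal papilla markers were higher in 2 of 4, 2 of 8 and 5 of 6 cases in basal epidermis, matrix and ORS and lower in 0. In ORS the largest ratios were those of Prom1 (at least 6.35-fold), Sox2 (at least 6.08-fold) and Hhip (at least 2.74-fold). Of the 10 markers, 2 lay above the floor in WT basal epidermis, 3 in WT matrix and 2 in WT ORS. The direction of this list was therefore partly fixed. Of the adipocyte markers 2 of 2 were lower in matrix and 1 of 2 in ORS, and of the melanocyte markers 1 of 7 in matrix and 1 of 6 in basal epidermis. Of the Schwann cell markers 1 of 2, Mbp, was higher in matrix.

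The markers of the sorted populations were read as a check. Basal layer markers were summed at 95346 in 2KO and 102955 in WT basal epidermis, 82877 in 2KO and 82088 in WT ORS, and 43626 in 2KO and 24356 in WT matrix. In matrix 3 of 6 basal layer markers were higher in 2KO, with Krt14 2.87-fold, Itgb4 2.47-fold and Krt5 2.10-fold, and a median log2 ratio of 0.99. Matrix markers were summed at 47396 in 2KO and 60706 in WT matrix, 2044 in 2KO and 6833 in WT basal epidermis, and 3215 in 2KO and 6123 in WT ORS. In matrix 1 of 10 of them was higher and 2 were lower. In basal epidermis and in ORS 4 of 9 were lower in 2KO and 1, Lef1, was higher. In basal epidermis Krt25 was 13.9-fold and Krt35 at least 10.7-fold lower, and in ORS Krt25 was 7.79-fold and Krt35 7.11-fold lower. The part of these markers in the collagen ratios of those populations was not tested. ORS markers, at 35343 in 2KO and 7994 in WT matrix, had 4 of 8 genes higher in 2KO matrix, with Krt79 18.1-fold, Sox9 12.6-fold and Nfatc1 9.44-fold. Krt79 made up much of the 2KO sum, at 19517 in 2KO and 1077 in WT matrix. The sums of this list were 46623.5 in 2KO and 57014 in WT ORS, and 29207 in 2KO and 44928 in WT basal epidermis. In ORS 1 of 8, Nfatc1, was 2.44-fold higher and 1, Krt79, was 3.28-fold lower. Markers of the ORS, the basal layer, fibroblasts, pericytes, muscle and immune cells thus moved in the same direction as the 19 collagens on the matrix arrays. A marker under the floor in WT alone could only come out higher in 2KO. On the WT matrix array 2 of 9 skeletal muscle markers and 5 of 10 immune markers lay above the floor, so the direction of these lists was partly fixed. The part of all these markers in the collagen ratios was not tested.

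In basal epidermis Col5a1 was 2.50-fold, Col27a1 3.70-fold and Col9a3 at least 2.05-fold higher in 2KO. Col1a1, Col1a2 and Col3a1 were between 1.54-fold and 1.90-fold lower. In that population 1 of 12 fibroblast markers and 0 of 3 skeletal muscle markers were higher, and 3 of 8 immune markers were lower. Of 6 measured pericyte and smooth muscle markers 2, Mcam and Cspg4, were higher and 0 lower. Of 8 ORS markers 3 were higher, Tcf7l1 (3.78-fold), Lhx2 (3.69-fold) and Cd34 (at least 2.36-fold), and 0 lower. The ORS list had a median log2 ratio of 0.03 and summed signals of 29207 in 2KO and 44928 in WT. Also higher were 2 of 4 dermal papilla markers, Sox2 (at least 6.10-fold) and Prom1 (at least 3.73-fold), and 1 of 7 endothelial markers, Egfl7 (2.22-fold). Of 9 matrix markers 1, Lef1, was higher and 4 were lower. The 2KO RNA was from females and the WT RNA from both sexes. The part of these markers and of sex in the collagen ratios was not tested.

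**Figure D5:**
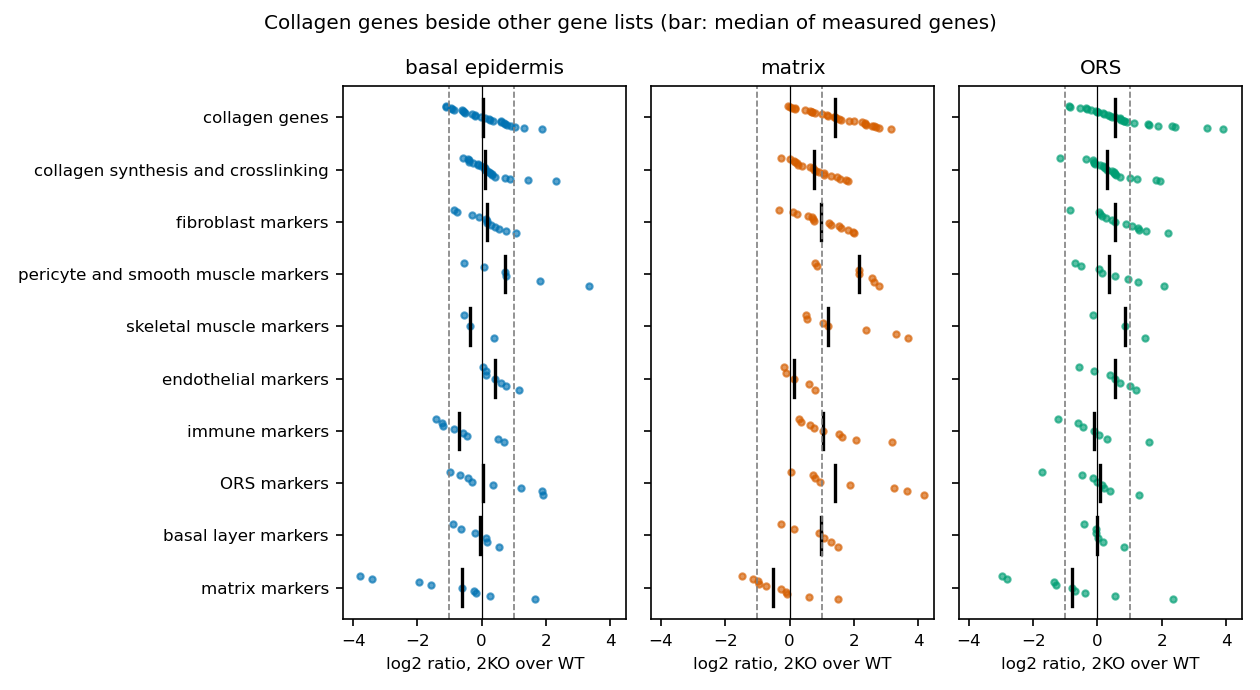
Log2 ratio of signals, 2KO over WT, in basal epidermis, matrix and ORS for the measured genes of the collagen family and of 9 other gene lists, 1 point per gene; black bars are the list medians and dashed lines mark 2-fold. The collagen median is 1.42 in matrix, where the medians of fibroblast (0.99), pericyte and smooth muscle (2.16), skeletal muscle (1.19), immune (1.04), basal layer (0.99) and ORS markers (1.42) also lie above 0. Genes below the floor in WT alone could not lie below 0, which holds for most measured skeletal muscle markers in matrix.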

How the data were processed

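Each of the 6 groups had 1 Affymetrix mouse expression array hybridised with biotin-labelled RNA (3-prime in vitro transcription, per the labels). The deposited values are signal intensities on a linear scale, 1 per probe set, made by the authors with MAS5 per the submitters' processing notes (version not given in the sources used here), with background subtraction per the series text. Each array had been scaled before deposit to a 2% trimmed mean of 500.0, which fixes the total signal, so a shift of most genes one way cannot be seen. The medians of the arrays were 78.4 in 2KO and 72.6 in WT basal epidermis, 92.5 and 76.2 in matrix, and 99.0 and 83.1 in ORS. The values were used as deposited; scale, direction and lack of centring follow from the columns themselves.

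Of 45101 probe sets, 64 controls, 932 naming several genes and 9160 without a gene in the platform annotation were left out, and 34945 named 1 gene. All 41 members' gene identifiers were found in RefSeq (GRCm38.p6). Signals below the floor of 83.4 were raised to it before log2 ratios were taken, with Python 3.11.15, numpy 2.4.6 and pandas 2.3.3. A gene was called at 2-fold, the threshold of the series text, over the whole table. With 1 array per group no difference within a population can be tested, and the number of arrays limits the precision. A model of genotype over the 3 populations together was not run. The alternatives were 2 other floors, 3 other scalings and 2 other ways to choose probe sets. The members and gene lists were chosen with earlier results of these data known. Signals on all arrays are given for Col6a1, Col5a1, Col9a3 and Col18a1, for members called between genotypes in any population, and for collagens IV, VI and VII above the floor; of the other lists, up to 4 (processing genes) or 3 (markers) called genes with the largest ratios were eligible per population.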

Additional observations from a re-analysis of the deposited data

Results flagged for a closer look

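Col16a1 was flagged because it went opposite ways in 2 cell populations, 2.16-fold lower in 2KO than in WT basal epidermis and 2.89-fold higher in 2KO than in WT matrix. The difference of the 2 log2 ratios, basal epidermis minus matrix, was -2.64, and with 1 array per group it was not tested. The gene had 1 probe set on the array.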

How the results depend on the processing

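Of 98 counts of members under the 7 alternatives, 76 stayed within 1.5 times the main count and 22 did not. With a floor at the 25th percentile (21.2), 6 members were higher in basal epidermis, 2 were lower in ORS, 3 were higher for matrix over ORS in 2KO and 1 in WT, and 3 were higher for basal epidermis over ORS in 2KO. With a floor at the 75th percentile (466.5), 0 were higher and 1 lower in basal epidermis, 11 were higher in matrix and 5 in ORS. Under that floor 8 were lower for matrix over ORS in WT, 11 were lower and 0 higher for basal epidermis over ORS in 2KO, and 4 were lower and 1 higher in WT; a higher floor leaves fewer members measured and shrinks ratios with 1 signal under it. After scaling to a common median 3 were higher and 4 lower in basal epidermis, and 7 higher and 1 lower in ORS. After scaling to the 18 hybridisation control probe sets 2 were higher and 4 lower in basal epidermis, 7 higher and 1 lower in ORS, and 12 higher and 0 lower in matrix; Col1a1, Col1a2, Col3a1, Col4a2, Col5a2, Col16a1 and Col18a1 were then under 2-fold there. That scaling moved the median log2 ratio of all matrix genes to -0.58, with the members at 0.79, and the common median moved it to -0.24, with the members at 1.14. With the mean of all probe sets of a gene 1 member was lower in ORS, 2 were higher for matrix over ORS in 2KO and 1 for basal epidermis over ORS in WT. The median of the members in basal epidermis, 0.05, turned negative with the higher floor (-0.22), the common median (-0.065), the hybridisation controls (-0.05) and the mean of probe sets (-0.008). No called ratio between genotypes of a named member changed sign under these alternatives. Col9a3 was under 2-fold in basal epidermis with the hybridisation controls and not measured there with the higher floor or the mean of probe sets. No fit paired by population was run, so genotype was not tested over the 3 populations together. No detection calls were used here, so signals near the floor have no error of their own.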
